A study of Homo sapiens with 6 samples.

Results

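The genes described here are 32 that are targets or regulators of the sterol regulatory element-binding proteins (SREBPs): 21 of cholesterol synthesis and its regulation (the sterol arm, HMGCS1 to SCAP) and 11 of fatty acid synthesis (the fatty acid arm, FASN to ELOVL5). They were taken by symbol from a list. All 32 were among the 23686 genes of the deposited tables, and all 32 were among the 14481 genes with enough reads to test. The study measured mRNA by RNA sequencing in 2 human non-small cell lung carcinoma lines, HCC15 and A427, both labelled wild type. In each line there was 1 library from cells transfected with LGR6 siRNA 4, 1 with LGR6 siRNA 2 and 1 with a control siRNA named Tax, which makes 6 libraries. All cells were grown in RPMI medium with 5% fetal bovine serum and collected 48 h after transfection, and neither an untransfected group nor the siRNA sequences were analysed here. Each line comes from 1 tumour. The design asked which genes are associated with LGR6, a receptor for R-spondins, the secreted proteins that strengthen Wnt signalling.

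SREBPs are made as precursors in the membrane of the endoplasmic reticulum. When membrane sterols are low, SCAP escorts the precursor to the Golgi, where the proteases MBTPS1 and MBTPS2 release the fragment that enters the nucleus. There it binds promoters together with NF-Y and Sp1. When sterols are plentiful, INSIG proteins hold SCAP in the endoplasmic reticulum. SREBF2 encodes the form that mainly drives cholesterol synthesis, and SREBF1 the forms that mainly drive synthesis and desaturation of fatty acids. Tumour cells commonly make their own fatty acids and sterols through these enzymes.

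Promoter sequence was looked up for the members in RefSeq (build GRCh38.p14), as the 250 bases before each annotated start, and 28 of the 32 genes had an entry. A window counted as holding a motif when the letters stood on either strand, overlaps between motifs were not removed, and a gene counted when any of its windows held the letters. The NF-Y motif CCAAT stood in 21 of the 28 genes (75.0%), against 41.3% of the 10354 tested genes with a window. The Sp1 motif GGGCGG stood in 26 of 28 (92.9%), against 74.9% of tested genes, and the E-box CACGTG in 3 of 28 (10.7%), against 11.3%. The sterol regulatory element, searched as TCACNCCAC, stood in 1 of 28 (3.57%), SREBF2, against 1.20% of tested genes. Only these letters were searched. Forms of the element with other letters were not counted, so a window without a match may still hold one. The 4 windows printed next are that of SREBF2, the gene with these letters, and those of SCD, STARD4 and TM7SF2. The last 3 are the members with the largest decreases with siRNA 4 against control. SREBF2 lies at chr22:41832855-41833104, plus strand, SCD at chr10:100346983-100347232, plus strand, STARD4 at chr5:111512536-111512785, minus strand and TM7SF2 at chr11:65111622-65111871, plus strand. They read 5′ to 3′ toward the start. Capitals mark the letters TCACNCCAC (found in SREBF2 only) and the CCAAT motif, which appears as ATTGG on the other strand.
SREBF2: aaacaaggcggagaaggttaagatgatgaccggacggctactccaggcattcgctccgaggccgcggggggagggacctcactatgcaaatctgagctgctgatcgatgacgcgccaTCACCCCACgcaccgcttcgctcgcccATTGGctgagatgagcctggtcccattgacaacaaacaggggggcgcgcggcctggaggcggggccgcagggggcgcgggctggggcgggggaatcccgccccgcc
SCD: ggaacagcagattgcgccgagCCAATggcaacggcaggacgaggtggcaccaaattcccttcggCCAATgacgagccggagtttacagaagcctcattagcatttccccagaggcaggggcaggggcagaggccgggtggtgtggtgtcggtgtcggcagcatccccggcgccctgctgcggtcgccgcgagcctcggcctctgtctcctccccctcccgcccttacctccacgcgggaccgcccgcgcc
STARD4: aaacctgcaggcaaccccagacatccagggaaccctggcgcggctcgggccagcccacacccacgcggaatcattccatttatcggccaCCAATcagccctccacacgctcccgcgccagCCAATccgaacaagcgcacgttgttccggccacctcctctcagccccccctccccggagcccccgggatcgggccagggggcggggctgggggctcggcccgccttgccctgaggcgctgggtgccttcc
TM7SF2: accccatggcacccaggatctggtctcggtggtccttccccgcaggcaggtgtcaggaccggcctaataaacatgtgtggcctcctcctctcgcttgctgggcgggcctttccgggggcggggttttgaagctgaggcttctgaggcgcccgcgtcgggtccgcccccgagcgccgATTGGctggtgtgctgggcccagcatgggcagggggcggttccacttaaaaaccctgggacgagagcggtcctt
In SREBF2 the element begins 133 bases before the start and the NF-Y motif 106 bases before it. SCD has NF-Y motifs that begin 229 and 186 bases before the start, STARD4 has them at 161 and 130, and TM7SF2 has 1 at 74. These matches describe letters in the windows and are not measured sites of binding.

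Total expected counts lay between 25546400 and 28987900 reads per library. Beside the tests, levels of 1 gene across libraries are given as CPM, the reads of the gene scaled to a common library size with edgeR's TMM factors. Levels of different genes are compared only as the deposited TPM, which are scaled by transcript length. The cell type markers, the ranks and sums of members, the levels given with them and those of overlapping genes are in TPM. No TMM factors were applied to these values, also where libraries are compared. No 2 libraries shared both line and siRNA, and the labels do not say whether they came from separate cultures. The p-values therefore set an effect against how far the siRNA effects differed between the lines, or the line difference between the siRNAs. They do not set it against a spread between repeats of 1 condition, and the estimate of spread is shared in part over all tested genes. When both LGR6 siRNAs form 1 group, the gap between them counts as spread too. Where the responses of the lines to that group are compared, the spread is that gap within a line. The target LGR6 was at 3.0006 with siRNA 4, 1.37 with siRNA 2 and 9.77 with the control siRNA in HCC15, all in CPM. In A427 it had 0 reads with either LGR6 siRNA and 5 with the control siRNA, and a count of 0 allows up to 3 reads, so the knockdown check rests on HCC15. Of 5 epithelial markers, KRT8 and KRT18 were at 1451 to 3694 and 2117 to 4072 TPM in HCC15, and at 276 to 389 and 307 to 419.8 TPM in A427. EPCAM was higher in A427, at 27.6 to 53.9 TPM in HCC15 and 403 to 457 in A427, and KRT19 and CDH1 were at 12.1 to 36.7 and 5.64 to 46.0 TPM in HCC15 and at 0.180 to 0.380 and 3.11 to 3.52 in A427. The T cell marker CD3E and the fibroblast marker DCN were at 0 TPM in all 6 libraries. The other fibroblast markers were not all absent. COL1A1 was at 4.72 to 7.05 TPM in HCC15 and 7.15 to 10.9 in A427, and LUM at 0.04 or less and 0.48 to 0.84. Of the endothelial markers, PECAM1 was at 0.02 TPM or less in all 6 libraries. VWF was at 0.02 TPM or less in HCC15 and 0.1 to 0.23 in A427. The 3 blood cell markers summed to 1.78 to 4.18 TPM in HCC15 and 25.4 to 32.5 in A427, nearly all of it CD68, and PTPRC was at 0 in HCC15 and 1.22 to 1.58 TPM in A427. Of 3 mesenchymal markers, VIM was at 1355 to 1605 TPM in HCC15 and 4382 to 5551 in A427, ZEB1 at 15.7 to 25.6 and 9 to 11.7, and FN1 at 0.540 to 0.790 and 1.46 to 3.68. The summed TPM of 5 epithelial markers was 3614 with siRNA 4, 7902 with siRNA 2 and 6011 with the control siRNA in HCC15, and 989, 1234 and 1263 in A427. Its part in the results that follow was not tested. In bulk RNA, a change in the share of cells with a transcript and a change in RNA per cell cannot be told apart.

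The members spanned a wide range of levels by TPM. SCD, the desaturase that makes oleate and palmitoleate, ranked first among the 32 in every A427 library, at 534 TPM with siRNA 4, 1983 with siRNA 2 and 1611 with the control siRNA. In HCC15 SCD stood at 59.2, 213 and 115 TPM, and there a different gene ranked first with each siRNA: ELOVL5 with siRNA 4, SCD with siRNA 2, and STARD4, a carrier that moves cholesterol between membranes, with the control siRNA. STARD4 and FDPS, the enzyme that makes farnesyl diphosphate, were among the 5 highest members in all 6 libraries. At the low end were ELOVL6, which lengthens saturated fatty acids, at 5.68 to 8.27 TPM in HCC15 and 4.57 to 5.97 in A427, and ACACB, the acetyl-CoA carboxylase of the mitochondrial surface, at 1.63 to 4.24 and 6.64 to 9.97.

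The TPM of the 21 sterol genes summed to 870.2 with siRNA 4, 1343 with siRNA 2 and 1117 with the control siRNA in HCC15, and to 1963, 4024 and 2992 in A427. The 11 fatty acid genes summed to 473, 653 and 555 in HCC15, and to 1506, 3841 and 2766 in A427. Both sums were lowest with siRNA 4 and highest with siRNA 2 in each line, and every A427 sum lay above every HCC15 sum of the same arm. SCD alone made up 12.5% (siRNA 4), 32.6% (siRNA 2) and 20.7% (control) of the fatty acid sum in HCC15, and 35.5%, 51.6% and 58.3% in A427. Without SCD the fatty acid sum in HCC15 was 414, 440.4 and 440.4 TPM, a narrow range, against 971, 1857 and 1155 TPM in A427. The sums are descriptions of 1 library each and carry no test.

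**Figure D1:**
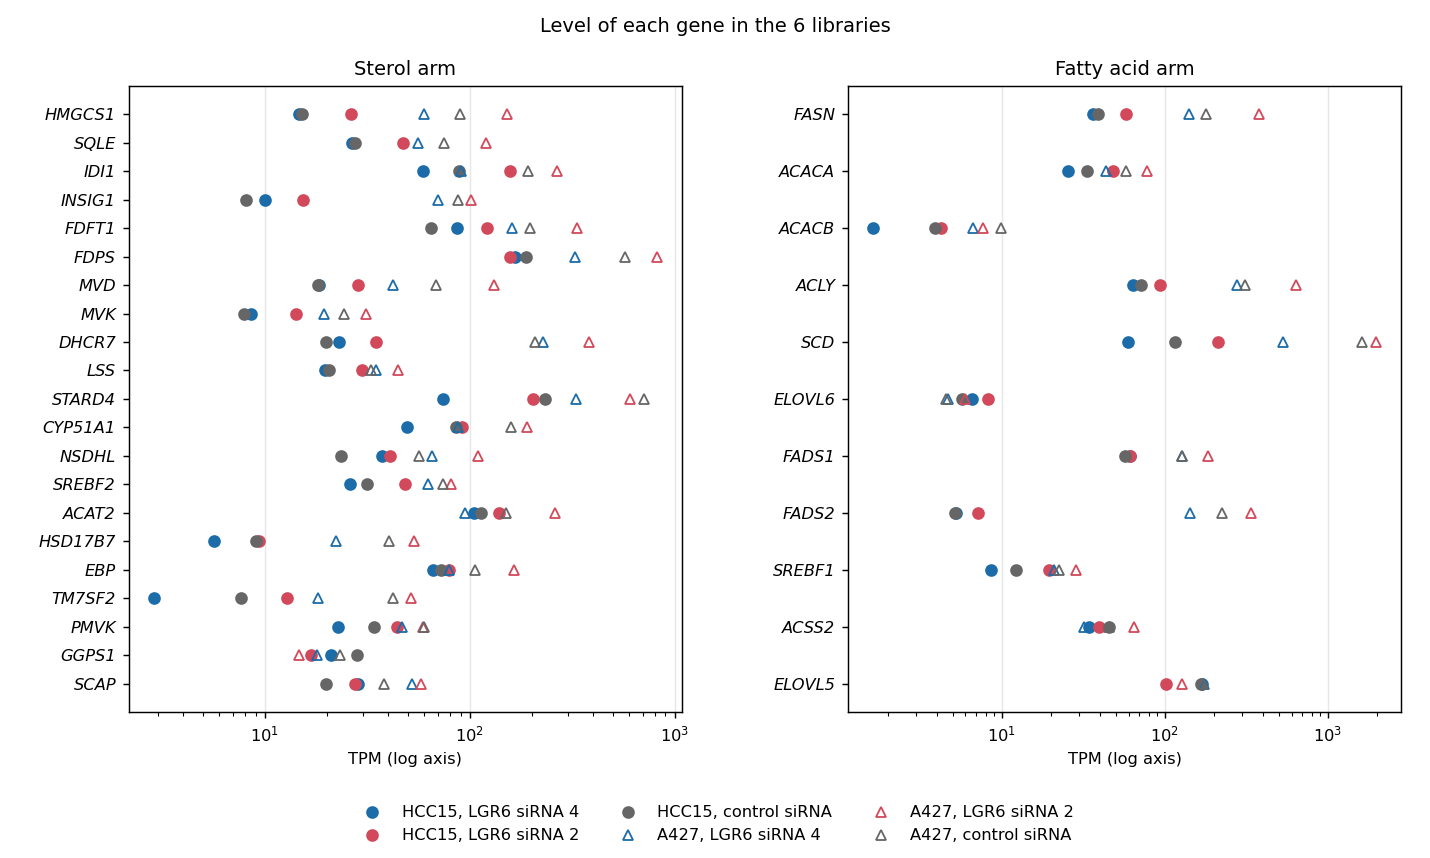
TPM (log axis) of each of the 32 genes, sterol arm at left and fatty acid arm at right, with 1 point per library: filled circles are HCC15, open triangles A427, blue siRNA 4, red siRNA 2 and grey the control siRNA. Most triangles lie to the right of the circles of the same gene, SCD in A427 reaches 1983 TPM, and FADS2 shows the widest gap between the lines.

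HCC15 was set against A427 over all siRNAs. Of the 32 genes, 27 were lower and 2 were higher in HCC15, and 3 did not pass an adjusted p under 0.05. Across all tested genes 76.5% passed, 39.3% lower and 37.2% higher, so passing was common in this comparison, while the members' direction was unevenly split. The median log2 difference of the members was -1.18, against -0.03 for all tested genes. In 23 members all 3 HCC15 libraries lay below all 3 A427 libraries, which held for 35.3% of tested genes, and in 1, ELOVL6, all 3 lay above, which held for 32.7%.

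The widest gap between the lines lay in the fatty acid arm. FADS2, the desaturase that begins synthesis of long polyunsaturated fatty acids, was at 8.34 with siRNA 4, 10.2 with siRNA 2 and 7.83 with the control siRNA in HCC15, and at 203, 475 and 322 in A427, in CPM. The lines did not overlap, and FADS2 was 36.2-fold lower in HCC15 (log2 fold change -5.18, SE 0.19, edgeR Benjamini-Hochberg adjusted p = 8.48e-08). FADS1, which acts later in the same route, was at 124 to 139.9 CPM in HCC15 and 260.2 to 367 in A427 (log2 fold change -1.18, SE 0.13, edgeR Benjamini-Hochberg adjusted p = 5.48e-05). FADS1 and FADS2 overlap in a short stretch of exon on opposite strands in the GENCODE annotation, and the sources used here do not say whether counting used strand. FADS2 exons also overlap those of FEN1 by 49 bases on the same strand. FEN1 was at 97.3 to 134 TPM, and FADS2 at 5.14 to 7.18 TPM in HCC15 and 142 to 340 in A427. The expected counts of FADS1 and FADS2 were whole in every library. SCD lay at 169 to 540.5 CPM in HCC15, below its 1361 to 4955 CPM in A427 in every library, and was 9.88-fold lower (log2 fold change -3.30, SE 0.15, edgeR Benjamini-Hochberg adjusted p = 2.95e-07). FASN, the fatty acid synthase, and ACLY, which makes cytosolic acetyl-CoA from citrate, stood at -2.199 and -2.24 on the log2 scale, both past the threshold. ACACA, the cytosolic acetyl-CoA carboxylase, stood at -0.65, ACACB at -1.29 and SREBF1 at -0.79, all 3 past the threshold. ELOVL6 was higher in HCC15 (log2 fold change 0.53, SE 0.15, edgeR Benjamini-Hochberg adjusted p = 0.00969). ELOVL5, which lengthens polyunsaturated fatty acids, and ACSS2, which makes acetyl-CoA from acetate, stood at 0.01 and -0.11 and did not pass.

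In the sterol arm 19 genes were lower in HCC15 and 1 was higher. DHCR7, the reductase of the last step of cholesterol synthesis, was at 30.7 with siRNA 4, 41.3 with siRNA 2 and 25.4 with the control siRNA in HCC15, and at 271, 444 and 246 in A427, in CPM. Its lines were far apart, and the log2 difference was -3.28 (SE 0.11, edgeR Benjamini-Hochberg adjusted p = 4.36e-08). INSIG1, the feedback protein whose own gene is an SREBP target, was at 11.4 to 20.3 CPM in HCC15 and 92.6 to 132 in A427 (log2 fold change -2.88, SE 0.16, edgeR Benjamini-Hochberg adjusted p = 6.77e-07). HMGCS1, which condenses acetyl-CoA with acetoacetyl-CoA, followed at -2.28, then TM7SF2, a sterol reductase, at -2.24 and HSD17B7, a ketosteroid reductase of the pathway, at -2.13. The mevalonate enzymes MVK, PMVK and MVD differed by -1.21, -0.66 and -1.68. FDPS, FDFT1 (squalene synthase), SQLE (squalene epoxidase) and LSS (lanosterol synthase) differed by -1.56, -1.23, -1.19 and -0.62. STARD4, NSDHL (a sterol dehydrogenase), CYP51A1 (the lanosterol demethylase), IDI1 (the isopentenyl diphosphate isomerase) and EBP (a sterol isomerase) differed by -1.67, -1.07, -0.84, -0.73 and -0.53. These 17 genes together with SREBF2 and SCAP make up the 19 lower ones. Of the 29 calls between the lines, EBP and GGPS1 each passed in 2 of the 6 fits that left out 1 library, and the others passed in all 6. EBP stood at -0.27 without either siRNA 2 library and at -0.53 without either control library, and passed in none of these 4. GGPS1, which takes isoprenoids toward protein prenylation, was higher in HCC15 by 0.33 (SE 0.12, edgeR Benjamini-Hochberg adjusted p = 0.0277). It lay between 0.31 and 0.39 in the fits that left out 1 library, and limma on log2(TPM + 1) did not call it. ACAT2, the thiolase that makes acetoacetyl-CoA, did not pass, at -0.30 (SE 0.20).

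**Figure D2:**
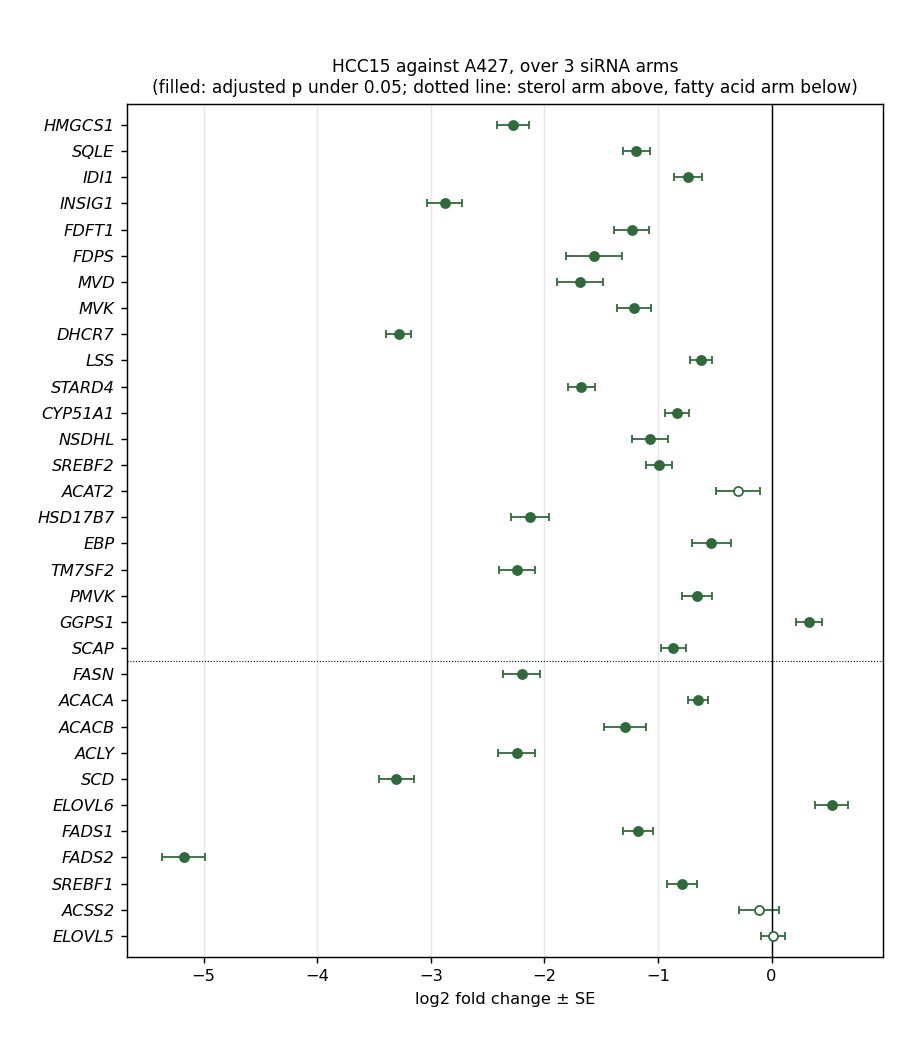
Log2 fold change of each of the 32 genes in HCC15 against A427, with bars of 1 SE either side, from the edgeR fit of line plus siRNA; filled points had an adjusted p under 0.05. FADS2 at -5.18 lies farthest to the left, ELOVL6 and GGPS1 are the 2 filled points to the right of 0, and ACAT2, ACSS2 and ELOVL5 are open.

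The LGR6 siRNAs were then compared with each other. With siRNA 4, 18 of the 32 genes were lower and 1 was higher than with siRNA 2, where 8.84% and 7.70% of all tested genes were lower and higher (16.5% in all). Of the 18, 12 were sterol genes and 6 fatty acid genes. The median log2 difference over the 32 was -0.65, against 0.00 for all tested genes. In 26 members siRNA 4 lay below siRNA 2 in both lines, which held for 33.0% of tested genes, and in GGPS1 and ELOVL5 it lay above in both, which held for 33.9%. In each of the 6 fits that left out 1 library fewer than 19 members passed, and fewer of all tested genes passed too. The fall in members was largest without either control library or without the A427 siRNA 4 library. SCD, TM7SF2, IDI1, HMGCS1, SQLE, STARD4, CYP51A1 and ACACA passed in all 6 fits that left out 1 library. FASN passed in 5 of 6, MVD and ELOVL5 in 4, HSD17B7 in 3, ACAT2, FADS2 and SREBF1 in 2, and FDFT1, DHCR7, SREBF2 and ACLY in 1.

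The widest gap was in SCD, at 169 with siRNA 4, 540.5 with siRNA 2 and 313 with the control siRNA in HCC15, and at 1361, 4955 and 4100.2 in A427, in CPM. In each line the siRNA 4 library was the lowest and the siRNA 2 library the highest, and the difference between them was past the threshold (log2 fold change -1.77, SE 0.18, edgeR Benjamini-Hochberg adjusted p = 0.00110). TM7SF2 had 2.14, 8.56 and 5.48 CPM in HCC15 (siRNA 4, siRNA 2, control), and 12.1, 33.7 and 28.1 CPM in A427 in the same order. Its siRNA 4 library was again the lowest of each line (log2 fold change -1.67, SE 0.20, edgeR Benjamini-Hochberg adjusted p = 0.00186), and its exons overlap those of VPS51 by 7 bases in the GENCODE annotation. IDI1 had 61.8, 146 and 88.9 CPM in HCC15 (siRNA 4, siRNA 2, control), and 84.2, 243 and 179.7 CPM in A427 in the same order, again lowest with siRNA 4 in each line (log2 fold change -1.38, SE 0.15, edgeR Benjamini-Hochberg adjusted p = 0.00149).

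Of the 8 enzymes from acetyl-CoA to squalene, ACAT2, HMGCS1, MVD, IDI1 and FDFT1 were lower with siRNA 4 than with siRNA 2, and MVK, PMVK and FDPS did not pass. HMGCS1 had 41.6, 66.4 and 40.9 CPM in HCC15 (siRNA 4, siRNA 2, control), and 151, 375 and 225 CPM in A427 in the same order. Here the siRNA 2 library stood above the others in each line, while siRNA 4 was near the control in HCC15 and below it in A427 (log2 fold change -0.996, SE 0.17, edgeR Benjamini-Hochberg adjusted p = 0.00724). MVD had 15.9, 21.9 and 14.9 CPM in HCC15 (siRNA 4, siRNA 2, control), and 32.3, 98.6 and 52.4 CPM in A427 in the same order. ACAT2 had 76.3, 90.1 and 78.6 CPM in HCC15 (siRNA 4, siRNA 2, control), and 61.3, 166 and 97.2 CPM in A427 in the same order, and both genes were more widely spread in A427. In the GENCODE annotation ACAT2 exons overlap those of SOD2 by 1106 bases and those of TCP1 by 397 bases, both on the opposite strand. The expected counts of ACAT2 were whole in every library, so no split of its reads with another gene shows in them. From position alone, reads inside the overlap cannot be told apart without strand. MVD, ACAT2 and FDFT1 differed by -1.06, -0.84 and -0.66 on the log2 scale and passed, while MVK and PMVK, at -0.60 and -0.55, did not. MVK had 7.64 to 12.7 CPM in HCC15 and 17.6 to 27.5 in A427, and PMVK had 13.5 to 23.1 and 24.5 to 31.7. FDPS went opposite ways in the lines, with 103, 86.6 and 113 CPM in HCC15 (siRNA 4, siRNA 2, control), and 182, 448 and 319 CPM in A427 in the same order, and did not pass (log2 fold change -0.54, SE 0.30, edgeR Benjamini-Hochberg adjusted p = 0.245). The called values moved with the libraries. Without the A427 siRNA 4 library MVD stood at -0.56, ACAT2 at -0.39 and FDFT1 at -0.30, and none of the 3 passed. Without the A427 siRNA 2 library MVD stood at -0.67 and ACAT2 at -0.39, again not past. Without the HCC15 siRNA 4 library ACAT2 stood at -1.30 and FDFT1 at -1.04, and without the HCC15 siRNA 2 library ACAT2 stood at -1.28, all past the threshold.

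Among the later sterol steps, SQLE had 40.3, 63.4 and 39.7 CPM in HCC15 (siRNA 4, siRNA 2, control), and 75.5, 158 and 100.2 CPM in A427 in the same order, again with siRNA 2 highest in each line (log2 fold change -0.86, SE 0.14, edgeR Benjamini-Hochberg adjusted p = 0.00683). CYP51A1, STARD4, HSD17B7 and DHCR7 were lower with siRNA 4 than with siRNA 2, at log2 fold changes of -0.90, -1.06, -0.97 and -0.58. HSD17B7 had 4.05, 5.96 and 6.16 CPM in HCC15 (siRNA 4, siRNA 2, control), and 14.03, 33.2 and 25.7 CPM in A427 in the same order, lowest with siRNA 4 in each line. The gene has a near-identical copy in the genome and was the only member with estimated counts that were not whole, in all 6 libraries, so its level is uncertain. Without the A427 siRNA 2 library it stood at -0.65 and did not pass, and DHCR7 lay between -0.68 and -0.46 over the fits that left out 1 library and passed in 1 of them. LSS had 41.2 to 56.4 CPM in HCC15 and 63.7 to 84.7 CPM in A427, and EBP had 34.0 to 36.3 and 36.2 to 74.3. LSS, NSDHL and EBP, at -0.40, -0.35 and -0.58, did not pass. GGPS1 stood at 0.40 and did not pass.

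In the fatty acid arm, FASN had 164, 230.4 and 166 CPM in HCC15 (siRNA 4, siRNA 2, control), and 566, 1486 and 719 CPM in A427 in the same order. The siRNA 2 library was the highest in each line and siRNA 4 was near or below the control (log2 fold change -0.95, SE 0.19, edgeR Benjamini-Hochberg adjusted p = 0.0147). ACLY had 144, 186 and 153 CPM in HCC15 (siRNA 4, siRNA 2, control), and 555, 1264 and 619 CPM in A427 in the same order, with the wider gap in A427 (log2 fold change -0.80, SE 0.19, edgeR Benjamini-Hochberg adjusted p = 0.0267). ACACA had 131, 219 and 163 CPM in HCC15 (siRNA 4, siRNA 2, control), and 198, 346 and 262 CPM in A427 in the same order, lowest with siRNA 4 in each line. ACACA and FADS2 differed by -0.77 and -0.84. Without the A427 siRNA 2 library FASN stood at -0.57 and still passed, while ACLY, at -0.39, and FADS2, at -0.51, did not, and FADS2 stood at -0.34 without the A427 siRNA 4 library. ELOVL5 was the 1 gene higher with siRNA 4, with 255, 134 and 240.3 CPM in HCC15 (siRNA 4, siRNA 2, control), and 229, 158 and 225 CPM in A427 in the same order. Here the siRNA 2 library was the low one in each line, and siRNA 4 lay slightly above the control (log2 fold change 0.73, SE 0.13, edgeR Benjamini-Hochberg adjusted p = 0.00937). ELOVL6 had 9.05 to 12.3 CPM in HCC15 and 6.81 to 8.69 in A427, and ACSS2 had 51.6 to 65.1 and 43.0 to 84.8. ACACB, ELOVL6, FADS1 and ACSS2 stood at -0.64, -0.24, -0.17 and -0.53 and did not pass.

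**Figure D3:**
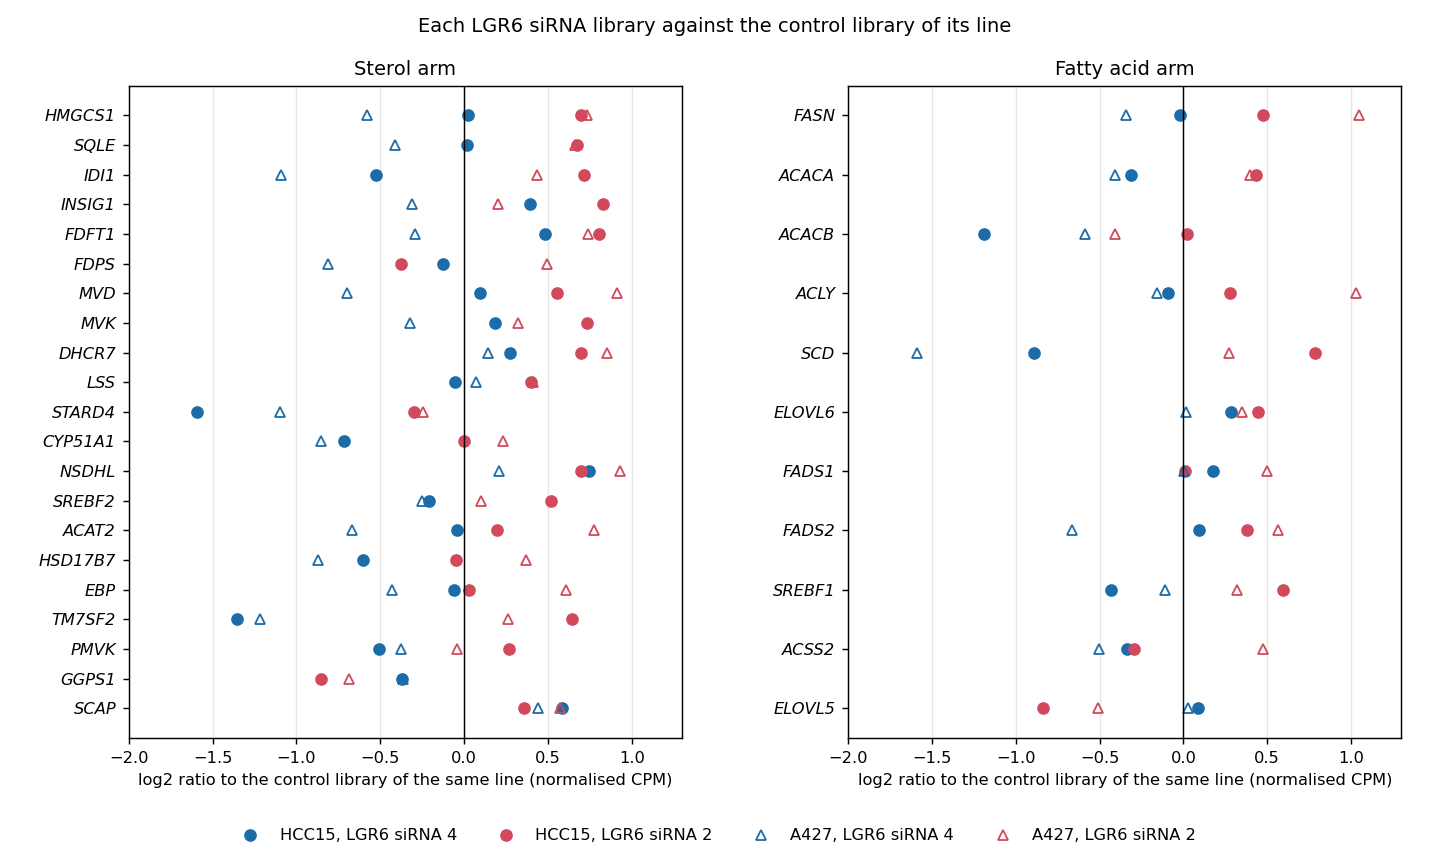
Log2 ratio of the CPM of each LGR6 siRNA library to the control library of the same line, for each of the 32 genes: filled circles are HCC15, open triangles A427, blue siRNA 4 and red siRNA 2. In SCD, TM7SF2, STARD4 and IDI1 both blue points lie below 0, and in GGPS1 and ELOVL5 both red points do. The points of a line share 1 control library.

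Against the control siRNA, siRNA 4 had 7 members lower and 1 higher, where 7.95% of all tested genes were lower and 4.58% higher (12.5% in all). The median was -0.27, against -0.01 for all tested genes. In 18 members siRNA 4 lay below the control in both lines, which held for 34.6% of tested genes, and in 6 (DHCR7, NSDHL, SCAP, ELOVL6, FADS1 and ELOVL5) it lay above in both, which held for 35.0%. STARD4 had 82.4, 202 and 249 CPM in HCC15 (siRNA 4, siRNA 2, control), and 327, 591 and 701 CPM in A427 in the same order. In both lines the order was siRNA 4, siRNA 2, control from low to high (log2 fold change -1.34, SE 0.15, edgeR Benjamini-Hochberg adjusted p = 0.00173). SCD, whose values are given above, fell by 1.25 on the log2 scale (SE 0.17, edgeR Benjamini-Hochberg adjusted p = 0.00428), and TM7SF2 fell by 1.25 (SE 0.20, edgeR Benjamini-Hochberg adjusted p = 0.00685). IDI1, CYP51A1, HSD17B7 and ACACB fell, at -0.81, -0.78, -0.77 and -0.83, and SCAP rose by 0.51. CYP51A1 had 77.1, 126 and 126 CPM in HCC15 (siRNA 4, siRNA 2, control), and 122, 259 and 220.4 CPM in A427 in the same order, so the decrease against control was of similar size in both lines and siRNA 2 was near the control in HCC15. ACACB had 8.03, 18.5 and 18.3 CPM in HCC15 (siRNA 4, siRNA 2, control), and 29.1, 32.9 and 43.6 CPM in A427 in the same order, and the decrease was larger in HCC15. Of the genes of the first sterol steps, HMGCS1 stood at -0.28 and MVD at -0.30, and FASN and ACLY stood at -0.17 and -0.12; none of these 4 passed. STARD4 exons overlap those of its antisense gene STARD4-AS1 by 124 bases in the GENCODE annotation. Across the libraries STARD4-AS1 was at 0.3 to 7.38 TPM and STARD4 at 73.8 to 704 TPM. The expected counts of STARD4 were whole in every library. From position alone, reads inside the overlap cannot be told apart without strand.

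The 8 calls rest on 1 control library per line. A fit without either of them has 1 residual degree of freedom. In both such fits fewer members passed, and so did fewer of all tested genes. The same held without the siRNA 4 library of HCC15. Over the 6 fits that left out 1 library, STARD4 lay between -1.58 and -1.11 and SCD between -1.54 and -0.93. ACACB stood at -0.48 without the HCC15 siRNA 4 library and at -1.30 without that of A427, and HSD17B7 at -0.48 without the A427 siRNA 4 library, where neither the first ACACB value nor that of HSD17B7 passed. STARD4 and SCD each passed in 5 of the 6 fits that left out 1 library, TM7SF2 and CYP51A1 in 4, IDI1, SCAP and ACACB in 3 and HSD17B7 in 2. The epithelial markers, which were also lower with siRNA 4 in both lines, are given above, and their part in these values was not tested.

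Against the same control libraries, siRNA 2 had 6 members higher and 2 lower, where 2.96% of all tested genes were higher and 4.66% lower (7.62% in all). The median was 0.44, against -0.01 for all tested genes. In 23 members siRNA 2 lay above the control in both lines, which held for 31.5% of tested genes, and in STARD4, GGPS1 and ELOVL5 it lay below in both, which held for 33.7%. DHCR7, whose values are given above, had the smallest adjusted p (log2 fold change 0.78, SE 0.12, edgeR Benjamini-Hochberg adjusted p = 0.00996). NSDHL had 27.6, 26.8 and 16.5 CPM in HCC15 (siRNA 4, siRNA 2, control), and 42.8, 70.7 and 37.1 CPM in A427 in the same order, and in HCC15 it was as high with siRNA 4 as with siRNA 2 (log2 fold change 0.83, SE 0.19, edgeR Benjamini-Hochberg adjusted p = 0.0363). FASN, FDFT1, HMGCS1 and SQLE rose by 0.78, 0.77, 0.72 and 0.67 on the log2 scale. FDFT1 had 89.0, 111 and 63.6 CPM in HCC15 (siRNA 4, siRNA 2, control), and 148, 302 and 181 CPM in A427 in the same order, so siRNA 4 lay above the control in HCC15 and below it in A427. GGPS1 had 29.1, 20.8 and 37.6 CPM in HCC15 (siRNA 4, siRNA 2, control), and 22.3, 17.9 and 28.7 CPM in A427 in the same order, with siRNA 2 lowest in each line (log2 fold change -0.77, SE 0.14, edgeR Benjamini-Hochberg adjusted p = 0.0185). ELOVL5 fell by 0.67 (SE 0.13, edgeR Benjamini-Hochberg adjusted p = 0.0218). GGPS1 exons overlap those of ARID4B and TBCE in the GENCODE annotation.

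The count of 8 for siRNA 2 moved with the libraries too. Fewer members passed without either control library or either siRNA 2 library, and fewer of all tested genes passed in those fits too. DESeq2 called 15 members (13 higher, 2 lower) and 9.91% of all tested genes. Over all genes DESeq2 called 690 higher and 745 lower and limma on log2(TPM + 1) 413 and 393, against 429 and 675 in edgeR. DHCR7, FASN, GGPS1 and ELOVL5 passed in 3 of the 6 fits that left out 1 library, and HMGCS1, SQLE, FDFT1 and NSDHL in 2. Without the A427 siRNA 2 library FASN stood at 0.39 and NSDHL at 0.55, and neither passed. SCD, IDI1 and ACLY stood at 0.52, 0.57 and 0.68 in edgeR and did not pass there, and they passed in DESeq2. The comparisons of siRNA 4 and of siRNA 2 with control share both control libraries, so for each member the values are set side by side and no likeness between the comparisons was computed.

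**Figure D4:**
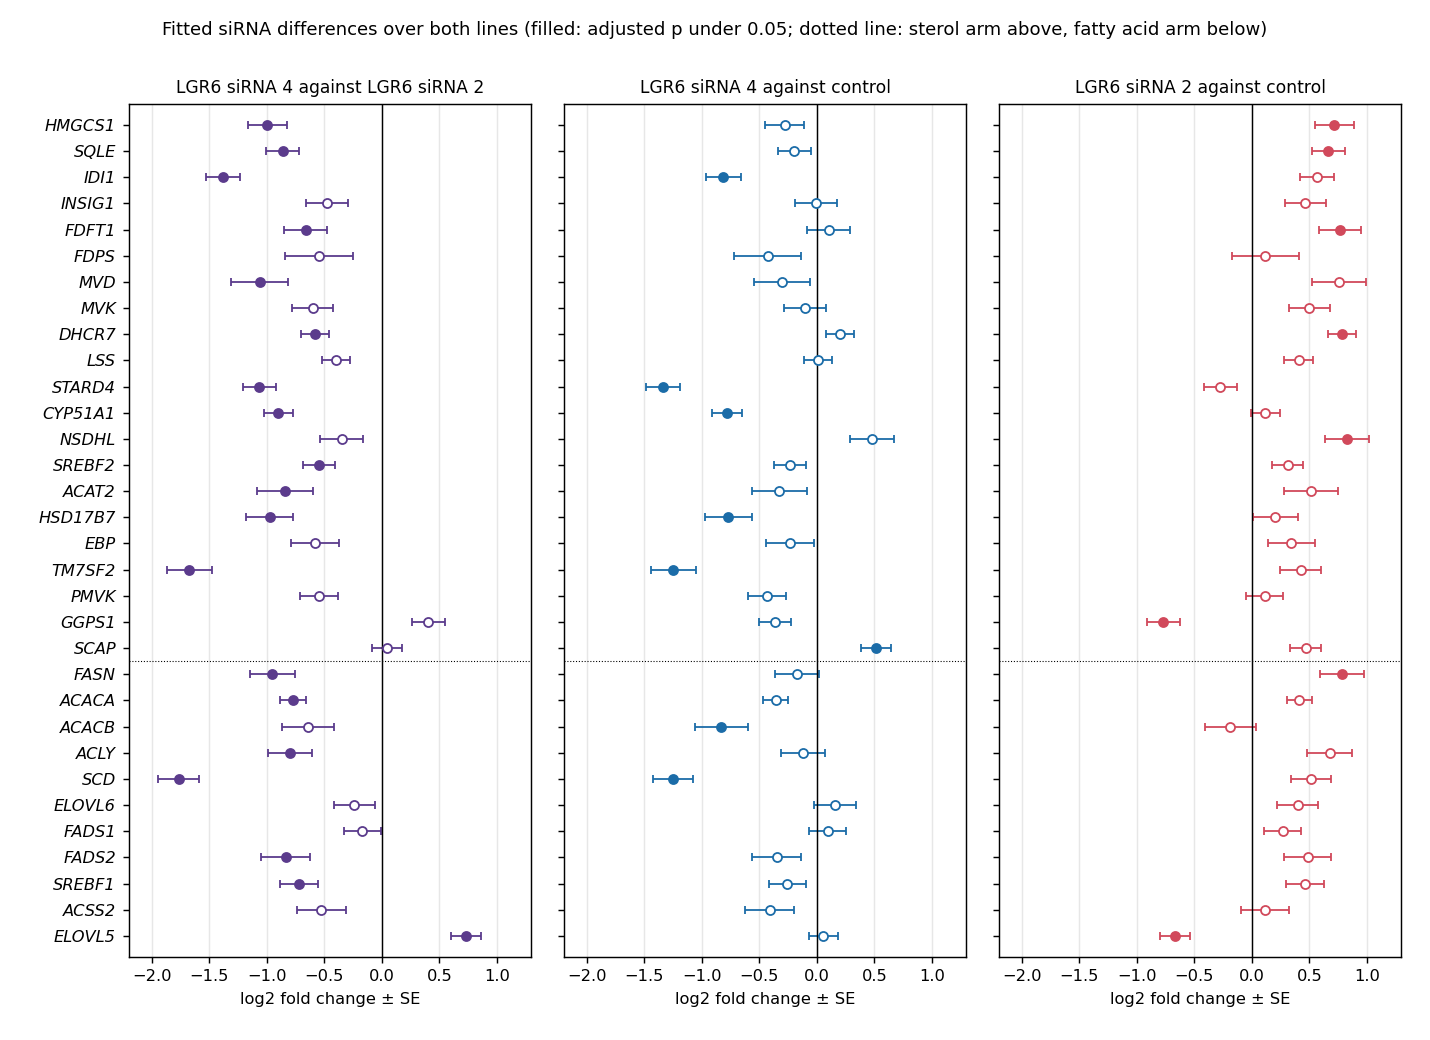
Fitted log2 fold changes of the 32 genes over both lines, with bars of 1 SE either side, for siRNA 4 against siRNA 2 (left), siRNA 4 against control (middle) and siRNA 2 against control (right); filled points had an adjusted p under 0.05. At left 18 filled points lie below 0 and 1 above, in the middle STARD4, TM7SF2 and SCD lie lowest, and at right DHCR7 and NSDHL are among the 6 filled points above 0.

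Taking both LGR6 siRNAs as 1 group against control, 0 of the 32 genes passed in edgeR, and 0 of the 14481 tested genes did (0%). At an unadjusted p under 0.05 there were 3 members, where 10.4% of all tested genes were. DESeq2 and limma on log2(TPM + 1) also called 0 members, where DESeq2 called 2.67% of all tested genes. The median over the members was 0.15, against -0.01 for all tested genes, and the values ran from -0.71 for STARD4 to 0.67 for NSDHL. In that fit the gap between the siRNAs counts as spread. The mean of the siRNA 2 and siRNA 4 effects against control was also tested, in the fit of line plus siRNA. There 5 members passed, where 8.96% of all tested genes did (3.31% higher, 5.65% lower). NSDHL at 0.65, DHCR7 at 0.49 and SCAP at 0.49 were higher, and STARD4 at -0.81 and GGPS1 at -0.57 were lower. Such a mean can join unlike effects, as in STARD4, at -1.34 with siRNA 4 and -0.27 with siRNA 2. Whether the response to the LGR6 siRNAs differed between the lines was tested by the interaction of line and siRNA arm. There 0 of 32 members and 0 of all tested genes (0%) passed in edgeR, with 0 members and 0.539% of all tested genes at an unadjusted p under 0.05, and 0 members in DESeq2 and in limma. The fitted differences, HCC15 minus A427, ran from -0.45 for ACLY (SE 0.73) to 0.66 for INSIG1 (SE 0.47). Standard errors were between 0.34 and 1.34, so differences between the lines of that size were not detectable.

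The regulators of the pathway are members too. SREBF2 had 57.6, 95.6 and 66.7 CPM in HCC15 (siRNA 4, siRNA 2, control), and 124, 158 and 147 CPM in A427 in the same order. The siRNA 2 library was the highest and siRNA 4 the lowest in each line, and every HCC15 value lay below every A427 value. It was lower in HCC15 than in A427 (log2 fold change -0.99, SE 0.11, edgeR Benjamini-Hochberg adjusted p = 6.20e-05) and lower with siRNA 4 than with siRNA 2 (log2 fold change -0.54, SE 0.14, edgeR Benjamini-Hochberg adjusted p = 0.0329), but the second value passed in 1 of the 6 fits that left out 1 library and was -0.34 without the HCC15 siRNA 2 library. SREBF1 had 22.1, 45.02 and 29.8 CPM in HCC15 (siRNA 4, siRNA 2, control), and 47.5, 63.9 and 51.2 CPM in A427 in the same order, again highest with siRNA 2 in each line, and was lower with siRNA 4 than with siRNA 2 (log2 fold change -0.72, SE 0.16, edgeR Benjamini-Hochberg adjusted p = 0.0218). That value passed in 2 of the 6 fits and lay between -0.96 and -0.49. Neither gene passed against control, SREBF2 at -0.23 with siRNA 4 and 0.31 with siRNA 2, and SREBF1 at -0.26 and 0.46.

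SCAP had 62.7, 53.6 and 41.9 CPM in HCC15 (siRNA 4, siRNA 2, control), and 102, 111 and 75.0 CPM in A427 in the same order. Both LGR6 siRNAs lay above the control in each line, and siRNA 4 passed against control (log2 fold change 0.51, SE 0.13, edgeR Benjamini-Hochberg adjusted p = 0.0400) while siRNA 2 did not (log2 fold change 0.47, SE 0.13, edgeR Benjamini-Hochberg adjusted p = 0.0716). The siRNAs differed from each other by 0.05 (SE 0.13). INSIG1 had 15.0, 20.3 and 11.4 CPM in HCC15 (siRNA 4, siRNA 2, control), and 92.6, 132 and 115 CPM in A427 in the same order, highest with siRNA 2 in each line, and passed in none of the siRNA comparisons (-0.01 with siRNA 4 and 0.47 with siRNA 2 against control).

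Other genes of SREBP processing and sterol feedback were counted as a list of 11. Against control with siRNA 4, 1 was higher and 1 lower, and with siRNA 2, 0 passed in edgeR (0 in DESeq2 and 0 in limma, and 4 at an unadjusted p under 0.05, where 24.6% of all tested genes were). MBTPS2, the intramembrane protease that makes the second cut of SREBP, had 13.1, 47.5 and 61.3 CPM in HCC15 (siRNA 4, siRNA 2, control), and 18.7, 51.6 and 61.6 CPM in A427 in the same order. The siRNA 4 library was far below the others in each line (log2 fold change -1.96, SE 0.16, edgeR Benjamini-Hochberg adjusted p = 0.00121 against control), and it also lay below siRNA 2 (log2 fold change -1.65, SE 0.16, edgeR Benjamini-Hochberg adjusted p = 0.00106). Both values passed in all 6 fits that left out 1 library. MBTPS1, the protease of the first cut, had 119.6, 209 and 163 CPM in HCC15 (siRNA 4, siRNA 2, control), and 129, 189.6 and 146 CPM in A427 in the same order, and was lower with siRNA 4 than with siRNA 2 (log2 fold change -0.68, SE 0.12, edgeR Benjamini-Hochberg adjusted p = 0.00949). NR1H2, a nuclear receptor for oxysterols, rose with siRNA 4 against control by 0.68 and stood above siRNA 2 by 0.73. In the fits that left out 1 library, MBTPS1 passed in 4 of 6, and NR1H2 in 3 and 4. In HCC15 against A427, 6 of the 11 were higher and 0 lower, where 37.2% and 39.3% of all tested genes were (76.5% in all). The cholesterol exporter ABCA1 had 5.18 to 9.92 CPM in HCC15, against 0 to 0.109 CPM in A427, and its partner ABCG1 had 45.3 to 50.4 CPM, against 1.13 to 2.18. MYLIP, a ubiquitin ligase for lipoprotein receptors, was higher in HCC15 by 2.62 and RNF139, an endoplasmic reticulum ubiquitin ligase, by 0.99 on the log2 scale.

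**Figure D5:**
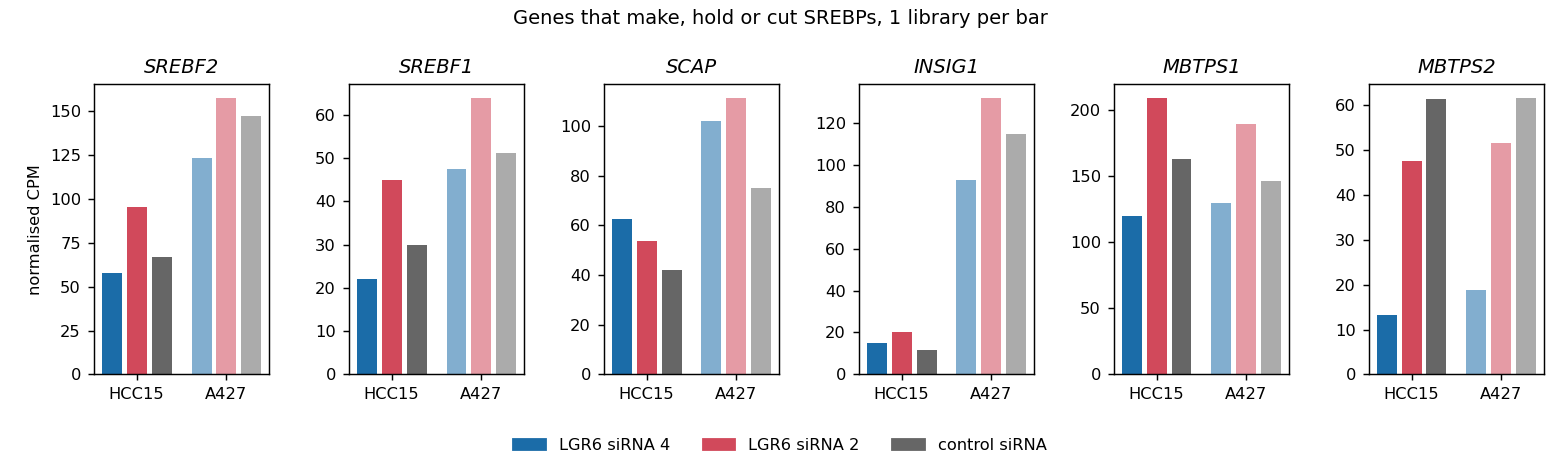
CPM of SREBF2, SREBF1, SCAP, INSIG1, MBTPS1 and MBTPS2, with 1 bar per library: HCC15 at left in full colour and A427 at right in pale colour, blue for siRNA 4, red for siRNA 2 and grey for the control siRNA, each axis from 0. MBTPS2 is at 13.1 CPM in HCC15 and 18.7 CPM in A427 with siRNA 4, and at 47.5 CPM or more in the other 4 libraries.

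Of 8 other genes of sterol synthesis and transport, siRNA 4 against control had 1 higher and 1 lower, siRNA 4 against siRNA 2 had 1 higher and 2 lower, and siRNA 2 against control had 0 in edgeR (AACS in DESeq2 and in limma, and 5 at an unadjusted p under 0.05, where 24.6% of all tested genes were). MSMO1, a sterol methyl oxidase, had 11.5, 16.6 and 20.1 CPM in HCC15 (siRNA 4, siRNA 2, control), and 42.3, 76.5 and 101 CPM in A427 in the same order, lowest with siRNA 4 in each line, and fell against control by 1.05 (SE 0.15, edgeR Benjamini-Hochberg adjusted p = 0.00482). AACS, which activates acetoacetate, rose with siRNA 4 against control by 0.67. NPC2, a lysosomal cholesterol carrier, stood above siRNA 2 by 0.75, while MSMO1 and the sterol desaturase SC5D (listed as SC5DL) were below it, at -0.71 and -0.61. Of the fits that left out 1 library, MSMO1 passed in 4 of 6 against control and 3 against siRNA 2, AACS and NPC2 in 3 and SC5DL in 1. In HCC15 against A427, 4 of the 8 were lower and 2 higher, where 39.3% and 37.2% of all tested genes were (76.5% in all). NPC1, the lysosomal membrane partner of NPC2, was at -2.61, MSMO1 at -2.15, NPC2 at -2.09 and AACS at 0.71.

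Of 18 other genes of fatty acid and glycerolipid synthesis, 17 were tested. SCD5, a desaturase of the same reaction as SCD, had 1.29, 0.210 and 1.75 CPM in HCC15 (siRNA 4, siRNA 2, control), and 43.6, 12.3 and 45.6 CPM in A427 in the same order. Its siRNA 2 library was the lowest in each line, unlike that of SCD, and it fell with siRNA 2 against control by 2.03 (SE 0.23, edgeR Benjamini-Hochberg adjusted p = 0.00426), or by 1.32 in limma on log2(TPM + 1), a scale that understates low genes. HACD3 (listed as PTPLAD1), a dehydratase of fatty acid elongation, had 308, 100.3 and 281 CPM in HCC15 (siRNA 4, siRNA 2, control), and 154, 73.3 and 152 CPM in A427 in the same order, with siRNA 2 low in each line (log2 fold change -1.26, SE 0.15, edgeR Benjamini-Hochberg adjusted p = 0.00484). These were the 2 genes of the list past the threshold with siRNA 2, both lower. With siRNA 4 against control 1 was higher, DGAT2, an enzyme of triglyceride synthesis, by 0.77. Against siRNA 2, siRNA 4 had SCD5, PTPLAD1 and MLXIP (a glucose-sensing transcription factor) higher by 1.88, 1.34 and 0.43, and ACSL3, an acyl-CoA synthetase, lower at -0.81. SCD5 and PTPLAD1 passed there in all 6 fits that left out 1 library, ACSL3 in 5 and MLXIP in 0, and limma on log2(TPM + 1) did not call MLXIP. DGAT2 passed in 2 of 6, and against control with siRNA 2 SCD5 passed in 4 and PTPLAD1 in 5. In HCC15 against A427, 7 of the 17 were higher and 6 lower, where 37.2% and 39.3% of all tested genes were (76.5% in all). ME1, the malic enzyme that supplies NADPH, lay at 253 to 443 CPM in HCC15, above its 11.4 to 15.8 CPM in A427 in every library (log2 fold change 4.72, SE 0.15, edgeR Benjamini-Hochberg adjusted p = 3.32e-08), while SCD5 stood at -5.00, DGAT2 at -1.12 and PTPLAD1 at 0.78. In these 3 lists 0 of the 36 tested genes passed for both LGR6 siRNAs together against control or for the difference between the lines in edgeR, with 3 and 0 at an unadjusted p under 0.05, and DESeq2 called AACS in the first.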

How the data were processed

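RNA sequencing libraries of HCC15 and A427 cells were prepared with a KAPA mRNA HyperPrep kit, as the labels' protocols say. The submitters' processing notes name FastQC 0.11.1, STAR 2.5.3a, RSEM 1.3.3 and the build hg19, while for the annotation the sources used here give no name. The authors deposited expected counts per gene and, in another table, TPM. Between 5.75% and 6.29% of the expected counts of a library were not whole numbers, and all were rounded for testing.

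The 14481 genes that reached 10 reads in 2 or more libraries were tested on TMM-scaled counts with edgeR 4.0.16 (glmQLFit, glmQLFTest; R 4.3.3), Benjamini-Hochberg adjustment over all of them and a threshold of 0.05. Fits were line plus siRNA (2 residual degrees of freedom), line plus arm (3) and line by arm (2), and were tested on simulated data. In a log2 fold change the group named first is on top. Members and lists were chosen with earlier results of these data known. All 32 members were named, and from each other list up to 4 genes per comparison with the largest change past the threshold, together with the genes behind counts of 5 or fewer. The labels give both lines the same siRNA numbers. Equal numbers were taken to mean the same reagent, which the labels do not state. The mean of the siRNA 2 and siRNA 4 effects against control was tested in the line plus siRNA fit. Exon overlap was read from GENCODE release 29, which may differ from the authors' annotation. The alternatives were DESeq2's size factors, DESeq2 1.42.0, no filter, limma 3.58.1 on log2(TPM + 1) for genes of at least 1 TPM in 2 libraries, and leaving out each library. The closest pair of libraries had a chi-square of 57.0 per degree of freedom, so none was a duplicate. Some related genes are not reported here.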

Additional observations from a re-analysis of the deposited data

How the results depend on the processing

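Of 1888 refitted values of single members, 1752 kept their side of the threshold, 104 lost and 32 gained the call. Direction changed in 0 values that passed in either fit. Values that passed in neither fit count among the 1752 whatever their direction. Some of them did change it, such as ELOVL5 between the lines, which kept its direction in 2 of 6 fits that left out 1 library. Counts of members past the threshold were 29 of 32 between the lines, 19 for siRNA 4 against siRNA 2, 8 for siRNA 4 and 8 for siRNA 2 against control. DESeq2 called 15 for siRNA 2 against control, and its other counts, those with another normalisation, without a filter and with limma on log2(TPM + 1) stayed within 1.5 times of edgeR's. When 1 library was left out the counts ranged from 27 to 29 between the lines, 11 to 18 for siRNA 4 against siRNA 2, 1 to 8 for siRNA 4 against control, 0 to 10 for siRNA 2 against control, and 0 to 0 for both siRNAs together and for the difference between the lines. Both fits without a control library gave 0 for siRNA 2 and 1 for siRNA 4 against control. The mean of the siRNA 2 and siRNA 4 effects in the line plus siRNA fit gave a count of 5, against 0 for both siRNAs as 1 group. The difference between the lines could not be fitted without a control library. Of the other pathway genes 1 of 2118 values reversed: TMEM97, siRNA 4 against siRNA 2, stood at -0.01 and moved between -0.75 (without the HCC15 siRNA 2 library) and 0.88 (without that of A427), since it goes opposite ways in the lines. A fit that leaves out a library has 1 or 2 residual degrees of freedom and takes the lone sample to vary like the others. Without a control library, fewer of all tested genes passed in every comparison that had calls, so the loss of calls was not limited to the members.

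Each condition had 1 library, so spread between cultures was not measured. The siRNA effects rest on 1 control per line, shared by both siRNAs. Depth limits the low genes LGR6, SCD5 and ABCA1 in particular.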
